A study of Homo sapiens with 3 samples.

Results

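Chromosome 2 carries 4102 of the 60123 promoter windows for which a PAF1 and a PHF5A signal were listed, and its members were all windows with 2 in the chromosome column. Chromatin immunoprecipitation followed by sequencing was done in SW1990, an established human pancreatic ductal adenocarcinoma cell line, in cells labelled SP, an abbreviation that the labels do not spell out. The antibody of 1 library recognises PAF1 (its title says PD2) and that of another PHF5A, and both came from cells fixed with EGS (1.5 mM), a crosslinker of proteins to each other, and formaldehyde (0.4%). The remaining library is titled input and was not analysed here, and the IgG control that the protocol names was not used here either. The values are the signal of each antibody over windows of 2500 bp, which begin 2000 bp before a gene start in hg38 and end 500 bp after it, and the 52876 windows of the 21 other autosomes serve as the comparison. The signal does not measure expression, so the labelled cell type was not checked against marker genes.

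PAF1 gives its name to a complex that travels with RNA polymerase II, helps it through chromatin and couples elongation to histone modification. PHF5A is a small zinc finger protein of SF3b, the part of the U2 snRNP that recognises the branch point of introns, and it also associates with the PAF1 complex. Chromosome 2 is among the largest human chromosomes and holds the HOXD cluster, most of the interleukin-1 family, the immunoglobulin kappa locus and several of the longest human genes.

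Chromosome 2 was chosen by the PAF1 to PHF5A ratio of its promoters, which leans towards the PAF1 library. The ratio itself, by region, strand, length and class, is therefore given as a description without any test. Each antibody has 1 library, and a difference between them therefore has no replicate check. Errors after ± are standard errors of counting within a single library, and the intervals of medians and shares (95%, binomial order statistics for medians and Wilson for shares) treat windows as independent. Neighbouring windows share signal, and 1041 windows of chromosome 2 (25.4%) overlapped another, so these intervals are too narrow.

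To show sequence from within these windows, 6 promoters at the extremes of the ratio and those of 2 SF3b genes are printed. Each covers 300 of the 2500 bases of its window. RefSeq sequences of GRCh38.p14 run from 250 bases before to 50 bases after the RefSeq gene start, 5′ to 3′ on the gene's own strand. That start lay 291 bases from the start used for the window at PTPN4, 289 at CENPO, 247 at PTPRN and 117 at SF3B6. At DAPL1, VWC2L, XIRP2 and SF3B1 the distance was at most 11. Capitals mark matches on either strand to the TATA box TATAAA, the NF-Y motif CCAAT, the GC box GGGCGG, the ETS site CCGGAAG, the E-box CACGTG, the NRF1 core GCGCATGCG and the CRE core TGACGTCA, and overlapping matches run together. Of 35116 RefSeq promoters of this length, 11.5% held TATAAA, 34.6% CCAAT, 45.0% GGGCGG, 10.3% CCGGAAG, 7.26% CACGTG, 1.92% GCGCATGCG and 1.85% TGACGTCA. DAPL1 (chr2:158795067-158795366, plus strand), VWC2L (chr2:214410804-214411103, plus) and PTPN4 (chr2:119759672-119759971, plus) had the highest ratios of coding promoters with a mean signal of both libraries of at least 4. CENPO (chr2:24793175-24793474, plus), XIRP2 (chr2:166888230-166888529, plus) and PTPRN (chr2:219309352-219309651, minus) had the lowest at that signal level. SF3B1 (chr2:197435044-197435343, minus) and SF3B6 (chr2:24076277-24076576, minus) encode partners of PHF5A in SF3b.
DAPL1: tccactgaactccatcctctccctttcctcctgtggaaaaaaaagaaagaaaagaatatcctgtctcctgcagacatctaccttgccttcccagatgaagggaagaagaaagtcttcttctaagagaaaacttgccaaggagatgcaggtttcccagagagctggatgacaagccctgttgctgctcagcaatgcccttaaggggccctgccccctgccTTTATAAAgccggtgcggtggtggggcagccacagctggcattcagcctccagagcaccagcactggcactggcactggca
VWC2L: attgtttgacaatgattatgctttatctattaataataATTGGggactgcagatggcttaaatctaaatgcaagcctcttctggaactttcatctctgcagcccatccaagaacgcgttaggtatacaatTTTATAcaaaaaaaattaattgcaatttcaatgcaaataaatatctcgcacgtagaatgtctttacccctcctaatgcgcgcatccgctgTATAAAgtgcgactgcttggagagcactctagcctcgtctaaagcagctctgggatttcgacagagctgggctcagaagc
PTPN4: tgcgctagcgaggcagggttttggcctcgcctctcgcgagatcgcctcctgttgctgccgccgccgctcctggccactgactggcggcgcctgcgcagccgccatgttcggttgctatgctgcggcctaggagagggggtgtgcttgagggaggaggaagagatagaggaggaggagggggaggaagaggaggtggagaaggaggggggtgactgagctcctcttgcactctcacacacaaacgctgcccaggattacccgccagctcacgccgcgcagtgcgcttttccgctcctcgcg
CENPO: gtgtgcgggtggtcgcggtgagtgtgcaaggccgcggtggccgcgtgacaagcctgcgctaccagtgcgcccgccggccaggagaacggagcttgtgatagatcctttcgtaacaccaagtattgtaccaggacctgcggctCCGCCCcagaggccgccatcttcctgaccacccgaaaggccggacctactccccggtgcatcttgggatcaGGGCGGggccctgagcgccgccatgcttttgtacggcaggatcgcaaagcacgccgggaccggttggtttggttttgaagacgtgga
XIRP2: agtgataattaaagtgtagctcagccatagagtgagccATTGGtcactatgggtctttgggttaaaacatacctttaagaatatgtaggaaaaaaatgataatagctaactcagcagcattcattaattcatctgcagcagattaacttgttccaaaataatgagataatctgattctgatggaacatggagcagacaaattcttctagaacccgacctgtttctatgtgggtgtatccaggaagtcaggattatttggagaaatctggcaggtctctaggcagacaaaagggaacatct
PTPRN: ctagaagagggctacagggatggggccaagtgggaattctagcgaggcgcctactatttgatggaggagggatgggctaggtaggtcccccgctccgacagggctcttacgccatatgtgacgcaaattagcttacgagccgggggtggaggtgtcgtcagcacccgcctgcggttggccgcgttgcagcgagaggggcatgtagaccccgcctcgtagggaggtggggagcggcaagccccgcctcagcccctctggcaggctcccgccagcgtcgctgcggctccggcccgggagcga
SF3B1: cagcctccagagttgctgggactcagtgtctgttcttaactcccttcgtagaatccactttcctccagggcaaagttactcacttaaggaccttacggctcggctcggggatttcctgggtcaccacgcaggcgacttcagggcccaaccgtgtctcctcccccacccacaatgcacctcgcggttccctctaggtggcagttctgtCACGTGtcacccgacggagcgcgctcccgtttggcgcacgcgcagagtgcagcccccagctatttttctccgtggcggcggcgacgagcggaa
SF3B6: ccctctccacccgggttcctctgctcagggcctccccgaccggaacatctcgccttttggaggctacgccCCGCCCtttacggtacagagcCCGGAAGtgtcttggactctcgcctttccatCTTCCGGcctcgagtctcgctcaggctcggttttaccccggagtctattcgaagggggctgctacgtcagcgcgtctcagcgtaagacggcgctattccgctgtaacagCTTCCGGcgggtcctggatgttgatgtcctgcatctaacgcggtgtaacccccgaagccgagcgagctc
Among the promoters with high ratios, DAPL1 and VWC2L had TATAAA matches near the start and few CpG dinucleotides (2 and 10), whereas PTPN4 had 24 and no match. Among those with low ratios, CENPO had 28 CpG dinucleotides and matches to GGGCGG, XIRP2 had 1 CpG and 1 match to CCAAT, and PTPRN had 25 CpGs and no match. Both ends of the ratio thus held CpG-rich and CpG-poor promoters. A sequence that lay wholly inside the window was found for 70.1% of protein-coding windows on chromosome 2 and 63.7% on other autosomes, under the 80% set as a minimum, so base composition was not compared between them and that check is void.

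Promoter signal on chromosome 2 was higher in the PAF1 library than in the PHF5A library, relative to the rest of the genome. The median window had a PAF1 signal of 4.94 and a PHF5A signal of 4.63 on chromosome 2, against 4.16 for PAF1 and 4.35 for PHF5A on other autosomes. Relative to the median window of the whole table (4.11 for PAF1 and 4.30 for PHF5A), the chromosome 2 median was 20.2% higher for PAF1 and 7.67% higher for PHF5A. Among 22 autosomes, chromosome 2 ranked 4 by median PAF1 signal and 9 by median PHF5A signal. The level of both antibodies was thus above the table's median, and that of PAF1 by more.

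For each window the ratio was log2 of PAF1 over PHF5A, each with 0.5 added and divided by the table median treated the same way, so that 0 stands for the table's median balance. The median ratio was 0.15 on chromosome 2 (interval 0.13 to 0.16) and 0.019 on other autosomes (0.014 to 0.023). The difference of 0.13 corresponds to 1.09-fold. The median of each of the 21 other autosomes lay between -0.029 (chromosome 17) and 0.058 (chromosomes 15 and 21), so the median of chromosome 2 stood above all of them. A window with the same value in both libraries, such as the 43 windows of chromosome 2 and 911 of other autosomes listed at 0 in both, has a ratio of 0.058 by construction, and this is the value at which the medians of chromosomes 15 and 21 sit.

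**Figure D1:**
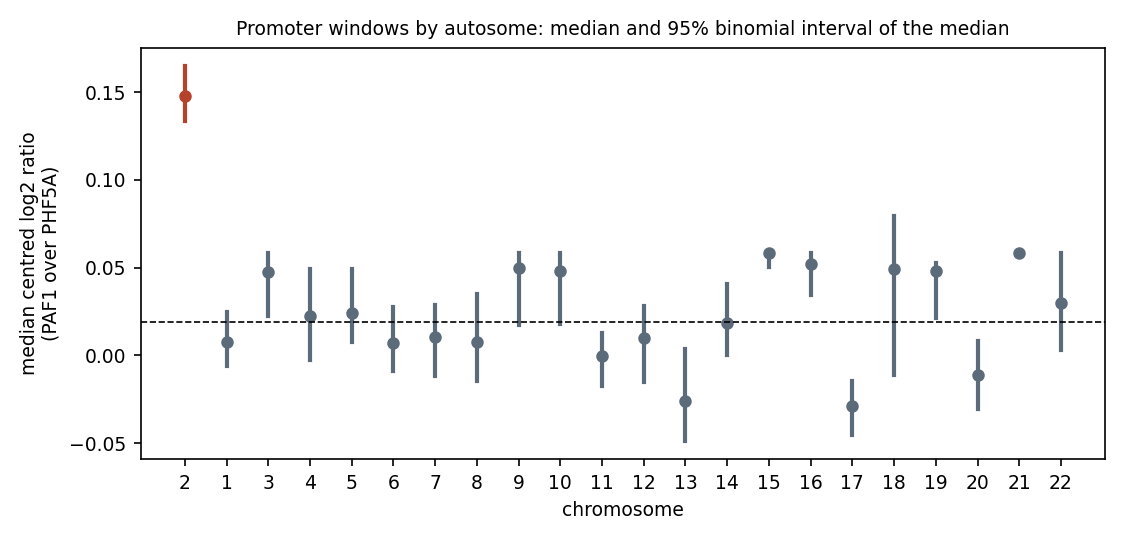
Median centred log2 ratio of PAF1 over PHF5A promoter signal on each autosome, with chromosome 2 at the left. Vertical bars are 95% binomial intervals of the median and the dashed line is the median window of all other autosomes (0.019). Chromosome 2 stands at 0.15, and the other 21 lie between -0.029 and 0.058.

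Chromosome 2 was also the highest by sums of signal, while the order of the other autosomes differed from that by medians. Chromosome 2 held 7.80% of the summed PAF1 signal and 7.01% of the summed PHF5A signal, with 6.82% of the windows. Over windows that overlap no earlier one, the log2 ratio of the sums, relative to other autosomes, was 0.165 ± 0.0076 for chromosome 2. For the 21 other autosomes it lay between -0.071 (chromosome 17) and 0.047 (chromosome 3, 0.047 ± 0.0085).

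The whole distribution of ratios lay higher on chromosome 2, not only its upper end. The 5th, 25th, 50th, 75th and 95th percentiles were -0.57, -0.12, 0.15, 0.43 and 0.87 on chromosome 2 and -0.79, -0.28, 0.019, 0.29 and 0.76 on other autosomes. Of chromosome 2 windows, 63.6% (interval 62.1 to 65.1) exceeded the median window of other autosomes, against 50.0% of other-autosome windows by definition. The distributions overlapped over most of their range, and the counting error of a single window's ratio, 0.42 at the median, exceeded the shift of 0.13. Across windows, the PAF1 and PHF5A signals had a Spearman rho of 0.80 on chromosome 2 (4102 windows) and 0.84 on other autosomes (52876 windows), a description of windows that share libraries and neighbours.

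Single windows with a large difference were few. On the same centred scale, a PAF1 signal at least 2-fold higher was found in 105 windows of chromosome 2 (2.56%, interval 2.12 to 3.09), against 1.82% of windows on other autosomes and 1.89% of all windows. A PHF5A signal at least 2-fold higher was found in 35 windows (0.853%, interval 0.614 to 1.18), against 2.35% on other autosomes and 2.26% of all windows. Many of these windows had low signal. Among windows with a mean of both signals of at least 4, 46 of 2633 on chromosome 2 (1.75%) were 2-fold higher in PAF1 and 5 (0.190%) in PHF5A, with backgrounds of 0.638% and 0.644% on other autosomes. These shares rest on the ratio that chose the chromosome and carry no further evidence.

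Both arms leaned the same way. The median ratio was 0.17 (interval 0.15 to 0.20) over the 1621 windows of the p arm, below 94 Mb, and 0.13 (0.11 to 0.15) over the 2481 windows of the q arm. Median signals were 5.05 for PAF1 and 4.58 for PHF5A on the p arm, and 4.88 for PAF1 and 4.63 for PHF5A on the q arm. The log2 ratio of summed signal, relative to other autosomes, was 0.173 ± 0.012 on the p arm and 0.161 ± 0.0098 on the q arm. The arms differed by less in the sums than in the medians.

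In steps of 10 Mb, the median ratio of all 25 steps of chromosome 2 was above the median window of other autosomes, against 46.6% of 266 such steps on other autosomes. The steps of chromosome 2 ranged from 0.039 to 0.20, and those of other autosomes from -0.16 to 0.18. In 23 of the 25 steps the whole interval lay above that median. For the steps from 10 to 20, 90 to 100 and 110 to 120 Mb, its lower end was 0.058. Windows equal in both libraries have this value by construction, and steps of other autosomes at exactly this value also count as above. Only 2 steps of other autosomes reached the median of chromosome 2, and 21 of the 25 steps of chromosome 2 reached the 95th percentile of other steps (0.10). The step with the highest value elsewhere, on chromosome 1, had 43 windows with median signals of 1.05 for PAF1 and 1.00 for PHF5A. The other, on chromosome 3 from 180 to 190 Mb, had a ratio of 0.15 over 205 windows. Its median signals were not low, 6.35 for PAF1 and 6.03 for PHF5A. Every step of chromosome 3 from 150 to 200 Mb was above that 95th percentile, with ratios from 0.11 to 0.15.

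**Figure D2:**
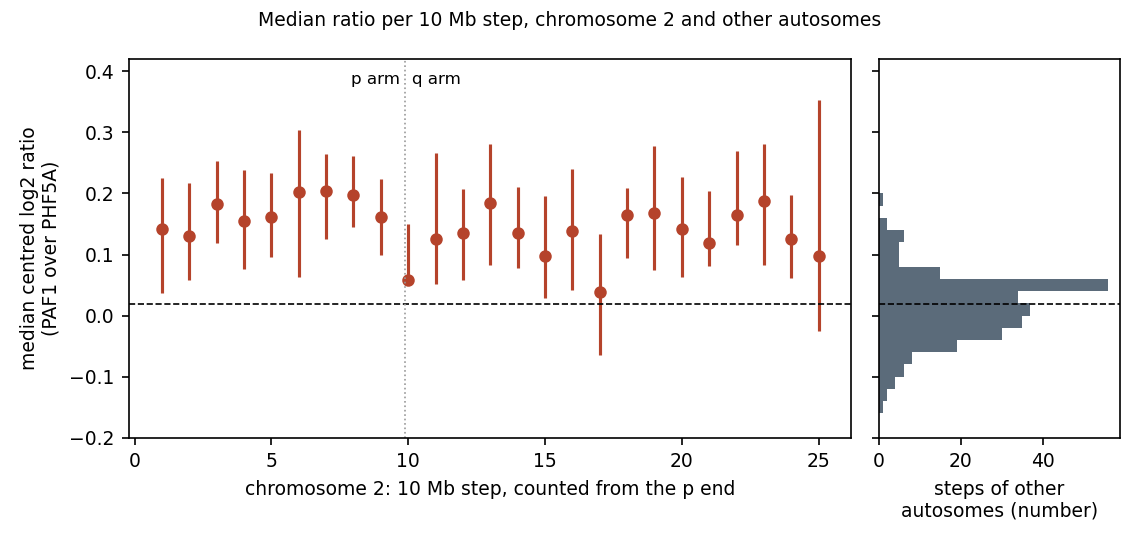
Left, median centred log2 ratio of PAF1 over PHF5A in each 10 Mb step of chromosome 2, numbered from the end of the p arm, with 95% binomial intervals of the median; the dotted line separates the arms. Right, the number of 10 Mb steps of other autosomes (20 or more windows) at each ratio on the same scale. All 25 steps lie above the dashed line, the median window of other autosomes (0.019).

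The highest medians stood side by side on the p arm, though the intervals of these steps overlapped those of most other steps. Step 7, from 60 to 70 Mb, had 0.20 (212 windows, median PAF1 5.48 and PHF5A 5.11), step 6, from 50 to 60 Mb, had 0.20 (113 windows, 5.23 for PAF1 and 4.91 for PHF5A), and step 8, from 70 to 80 Mb, had 0.20 (197 windows, 5.50 for PAF1 and 4.58 for PHF5A). Step 17, from 160 to 170 Mb, had the lowest median, 0.039 (117 windows, 5.50 for PAF1 and 5.42 for PHF5A), and its interval of -0.065 to 0.13 includes the median of other autosomes. Step 10, from 90 to 100 Mb around the centromere, had 0.058, the value of windows that are equal in both libraries, and 23 of its 211 windows were listed at 0 in at least 1 library. The last step, from 240 to 250 Mb, had 0.098 with a wide interval (-0.026 to 0.35) over 78 windows of low signal (2.22 for PAF1 and 2.30 for PHF5A). The log2 ratio of summed signal was above 0 in all 25 steps, with a median counting error of 0.039. It ran from 0.075 ± 0.041 in step 17 to 0.204 ± 0.031 in step 3. The order by sums differed from that by medians. Steps 6 (0.197 ± 0.042), 7 (0.159 ± 0.031) and 8 (0.170 ± 0.033) were below step 13 on the q arm (0.202 ± 0.0435).

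Within the steps with extreme medians, the coding promoters with the highest and lowest ratios lay far from the step's value. In step 7 the promoter of GFPT1, the first enzyme of the hexosamine pathway, had 5.22 ± 1.12 for PAF1 and 2.96 for PHF5A, and that of RAB1A, a GTPase of transport from endoplasmic reticulum to Golgi, 5.61 ± 1.16 for PAF1 and 3.24 for PHF5A. In the same step C1D, a cofactor of the nuclear exosome, had 3.94 for PAF1 and 7.21 for PHF5A, and SPRED2, an inhibitor of RAS signalling, 3.05 for PAF1 and 5.38 for PHF5A. In step 17 the RNA-binding protein gene RBMS1 had 5.82 for PAF1 and 2.84 for PHF5A, and the sodium channel gene SCN3A 7.11 for PAF1 and 3.96 for PHF5A. The ciliary gene TTC21B had 3.44 for PAF1 and 5.98 for PHF5A there, and XIRP2 2.44 for PAF1 and 6.42 for PHF5A. These promoters were picked as the highest and lowest coding ratios of their step at a mean signal of at least 4. Each step therefore shows both by selection. The counting errors of their ratios ran from 0.40 (C1D) to 0.46 (RBMS1).

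The ratio was close between the strands. Genes on the plus strand had a median of 0.14 on chromosome 2 (2054 windows) and 0.021 on other autosomes. Genes on the minus strand had 0.16 on chromosome 2 (2048 windows) and 0.017 on other autosomes. The intervals of the strands overlapped on chromosome 2 (0.12 to 0.16 for plus, 0.13 to 0.18 for minus).

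By gene length, every class was higher on chromosome 2. Genes under 10 kb had 0.17 on chromosome 2 (2632 windows) and 0.050 on other autosomes, those of 10 to 100 kb 0.11 on chromosome 2 (1068 windows) and -0.024 on other autosomes, and those of 100 to 500 kb 0.14 on chromosome 2 (366 windows) and -0.046 on other autosomes. Genes over 500 kb had 0.32 on chromosome 2, with a wide interval of 0.037 to 0.55 over 36 windows, and -0.042 on other autosomes (299 windows). The difference was thus 0.12, 0.13, 0.18 and 0.36 in order of length, but the interval for the longest class includes the medians of all shorter classes.

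The longest genes show how wide that spread is. Of the 36 windows, 25 (69.4%) were above the median window of other autosomes, against 63.6% of all chromosome 2 windows and 44.1% of windows of such long genes elsewhere. The non-coding gene LINC01090 had a PAF1 signal of 5.94 ± 1.20 and a PHF5A signal of 1.56 ± 0.615, the highest ratio at 1.70 ± 0.51. SPAG16, which encodes a protein of the sperm and cilium axoneme, followed with 5.77 ± 1.18 for PAF1 and 2.62 ± 0.797 for PHF5A. These 2 were the only long genes with a 2-fold higher PAF1 signal, and none had a 2-fold higher PHF5A signal. The receptor tyrosine kinase gene ERBB4 had 5.23 for PAF1 and 3.31 for PHF5A, and the catenin gene CTNNA2 8.82 for PAF1 and 6.09 for PHF5A. ALK, another receptor tyrosine kinase gene, had 5.50 for PAF1 and 4.69 for PHF5A, and the lipoprotein receptor gene LRP1B 5.11 for PAF1 and 4.63 for PHF5A, close to balance. At the low end, EXOC6B, a subunit of the exocyst, had 3.66 ± 0.939 for PAF1 and 5.86 ± 1.19 for PHF5A.

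**Figure D3:**
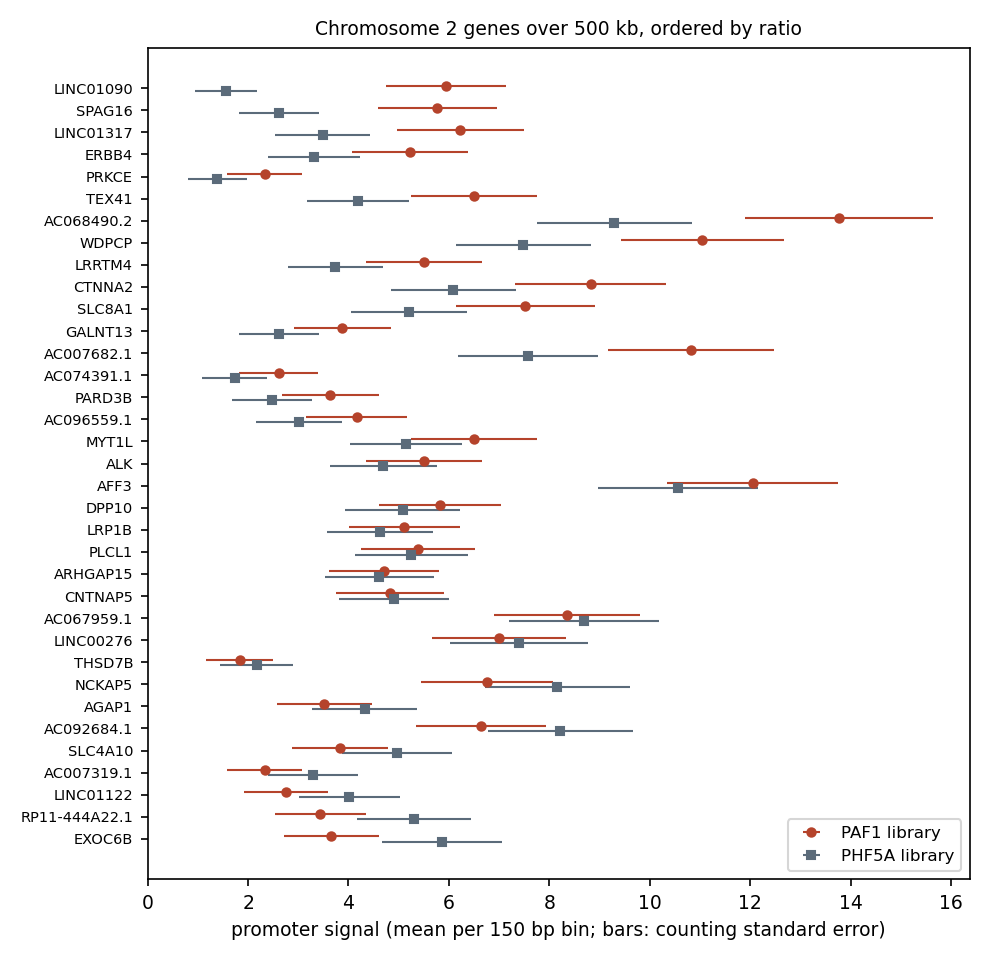
PAF1 (circles) and PHF5A (squares) promoter signal, as the mean per 150 bp bin, for 35 of the 36 chromosome 2 genes over 500 kb, ordered from the highest ratio to the lowest, with counting standard errors as bars. LINC01090 and SPAG16 at the top are separated by more than their bars, and for most other genes the bars overlap.

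All 7 gene classes had a higher median on chromosome 2. Protein-coding windows had a median ratio of 0.11 on chromosome 2 (1203 windows) and -0.034 on other autosomes (17141 windows), and 59.3% of them exceeded the median window of other autosomes, against 45.0% of coding windows elsewhere. Long non-coding RNA genes had 0.11 on chromosome 2 (166 windows) and 0.0057 on other autosomes. Pseudogenes had 0.19 on chromosome 2 (648 windows) and 0.058 on other autosomes. The remainder, clone-named genes and others placed in no other class, had 0.16 on chromosome 2 (1733 windows) and 0.039 on other autosomes. MicroRNA genes had 0.21 on chromosome 2 (101 windows, interval 0.10 to 0.34) and 0.021 on other autosomes. Other small RNA genes had 0.16 on chromosome 2 (153 windows) and 0.058 on other autosomes, and antigen receptor segments 0.14 on chromosome 2 (98 windows) and 0.039 on other autosomes. The differences ran from 0.097 for antigen receptor segments to 0.19 for microRNAs.

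On chromosome 2, the ratio was higher where the signal was higher. On other autosomes it also rose over the upper 4 levels, but there the lowest and the highest level had the same median. With windows sorted into 5 levels by the mean of both signals, each with 20% of the windows of other autosomes, chromosome 2 had medians of 0.058, 0.10, 0.13, 0.18 and 0.20 from the lowest to the highest level, and other autosomes 0.051, -0.029, -0.00080, 0.022 and 0.051. The lowest level (signal under 2.42) held 567 windows of chromosome 2, and 51 windows over all its levels were equal in both libraries. The difference was 0.0077 in the lowest level and 0.13, 0.13, 0.16 and 0.15 in the next 4. The difference was thus smallest in the level with the least signal.

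**Figure D4:**
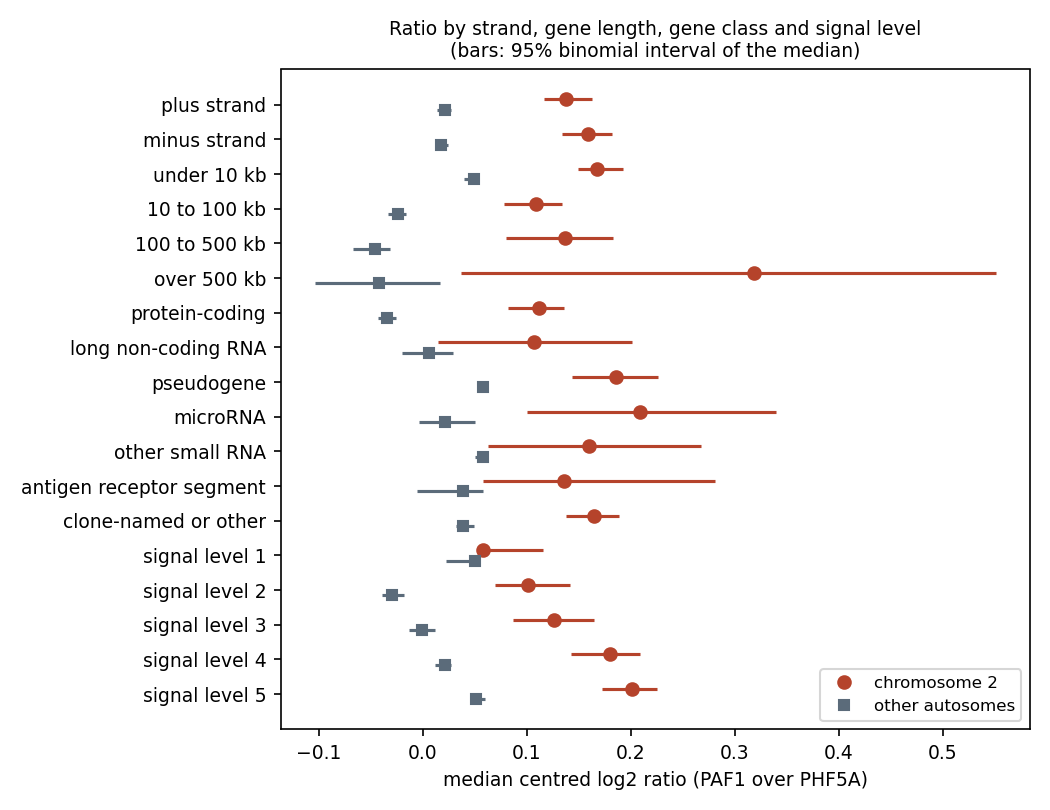
Median centred log2 ratio of PAF1 over PHF5A for chromosome 2 (circles) and for other autosomes (squares), by strand, gene length, gene class and level of mean signal, with 95% binomial intervals of the median. Chromosome 2 is higher in every group shown, from 0.0077 higher in the lowest signal level to 0.36 higher in genes over 500 kb.

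Among protein-coding promoters with a mean signal of at least 4, those with the highest ratio belong to genes of differing function. DAPL1, a gene of epithelial differentiation (ENSG00000163331, window chr2:158793317-158795817), had a PAF1 signal of 9.76 ± 1.58 and a PHF5A signal of 3.13 ± 0.896, a ratio of 1.56 ± 0.42. VWC2L, a secreted protein with a von Willebrand factor C domain (ENSG00000174453, window chr2:214409065-214411565), had 6.11 ± 1.21 for PAF1 and 1.95 ± 0.688 for PHF5A, a ratio of 1.49 ± 0.48. PTPN4, a non-receptor tyrosine phosphatase (ENSG00000088179, window chr2:119757631-119760131), had 14.5 ± 1.92 for PAF1 and 6.15 ± 1.26 for PHF5A, a ratio of 1.23 ± 0.33. PTPN4 had by far the highest PAF1 level of these.

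The other 7 of the highest had ratios from 1.01 to 1.23. MSGN1, a transcription factor of presomitic mesoderm, had 6.88 for PAF1 and 2.78 for PHF5A, and the striated muscle kinase gene SPEG 5.66 for PAF1 and 2.51 for PHF5A. SLC23A3, a member of the ascorbate transporter family, had 5.77 for PAF1 and 2.57 for PHF5A, and the sulfotransferase gene SULT1C3 6.55 for PAF1 and 3.01 for PHF5A. TAF1B, a subunit of the factor that recruits RNA polymerase I, had 6.82 for PAF1 and 3.25 for PHF5A, and the zinc finger gene ZNF638 6.0 for PAF1 and 2.85 for PHF5A. SPAG16, already described among the long genes, completes the 10.

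At the other end, CENPO, a kinetochore gene (ENSG00000138092, window chr2:24791136-24793636), had a PAF1 signal of 2.64 ± 0.821 and a PHF5A signal of 7.57 ± 1.39, a ratio of -1.30 ± 0.45. XIRP2, an actin-binding protein of striated muscle (ENSG00000163092, window chr2:166886487-166888987), had 2.44 ± 0.767 for PAF1 and 6.42 ± 1.25 for PHF5A, a ratio of -1.18 ± 0.46. PTPRN, an autoantigen of islet secretory granules (ENSG00000054356, window chr2:219309148-219311648), had 2.88 ± 0.833 for PAF1 and 6.76 ± 1.28 for PHF5A, a ratio of -1.04 ± 0.44. These 3 were the only coding promoters of this signal level with a PHF5A signal at least 2-fold higher. The next 7 ran from -0.96 for CKAP2L, a spindle protein gene (3.64 for PAF1 and 7.87 for PHF5A), to -0.71 for DIS3L2, an RNA exonuclease gene (3.16 for PAF1 and 5.75 for PHF5A). Between them were the oestrogen-responsive gene GREB1 (3.38 for PAF1 and 6.87 for PHF5A), CDKL4 (2.70 for PAF1 and 5.38 for PHF5A), the neuropeptide gene NMS (2.88 for PAF1 and 5.58 for PHF5A), the Fanconi ligase gene FANCL (3.55 for PAF1 and 6.76 for PHF5A) and C1D.

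**Figure D5:**
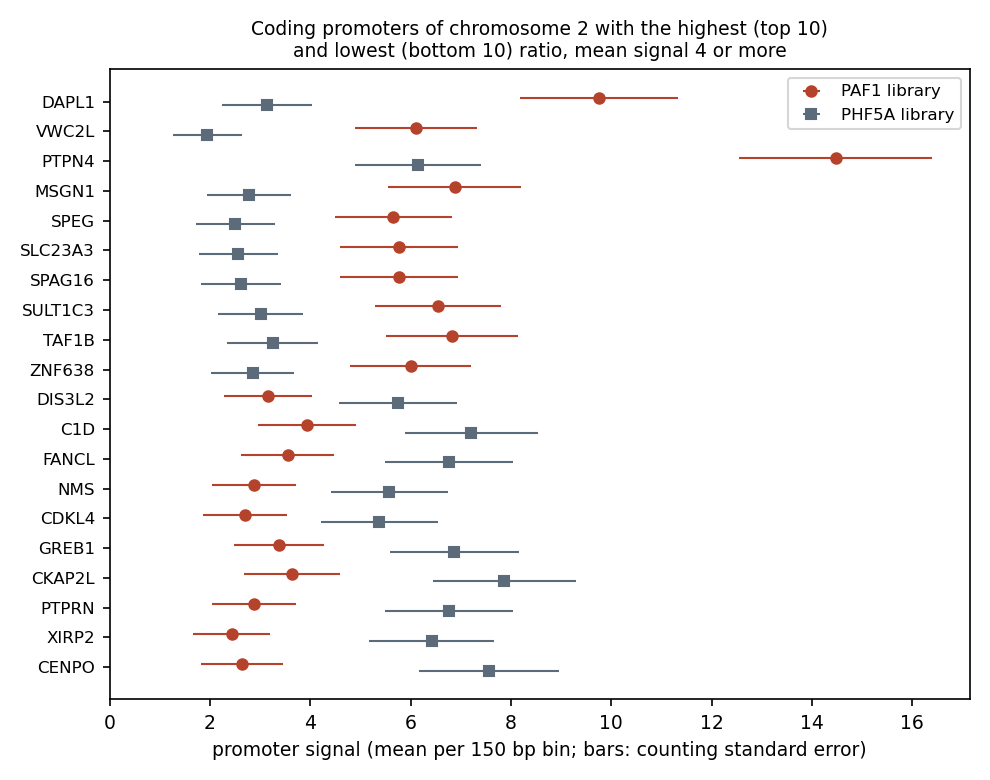
PAF1 (circles) and PHF5A (squares) promoter signal, as the mean per 150 bp bin with counting standard errors, for the 10 coding promoters of chromosome 2 with the highest ratio (top) and the 10 with the lowest (bottom), among those with a mean signal of 4 or more. DAPL1 has 9.76 for PAF1 and 3.13 for PHF5A, and CENPO 2.64 for PAF1 and 7.57 for PHF5A.

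The 5 coding promoters with the highest signal in both libraries, ranked by the lower of their signals, had ratios between -0.27 and 0.34. PRLH, which encodes prolactin-releasing hormone (ENSG00000071677, window chr2:237564574-237567074), had 15.1 ± 1.91 for PAF1 and 19.1 ± 2.15 for PHF5A. MRPS5, a mitochondrial ribosomal protein gene, had 13.1 for PAF1 and 12.6 for PHF5A, GNLY, which encodes the cytotoxic protein granulysin, 14.6 for PAF1 and 12.1 for PHF5A, KCTD18 12.47 for PAF1 and 11.95 for PHF5A, and the bicarbonate transporter gene SLC4A5 14.1 for PAF1 and 11.5 for PHF5A. Of these 5, only PRLH was higher for PHF5A.

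Genes of the splicing machinery had ratios in both directions. Of 16 genes in a broad spliceosome list, 9 were above the median window of other autosomes. The median ratio was 0.076, and none differed 2-fold in either direction. The list also held WBP1, CLK1, TIA1, HNRNPLL and RBM45, which are not core parts of the spliceosome. SF3B1, the largest SF3b subunit and a direct partner of PHF5A (ENSG00000115524), had 3.61 ± 0.932 for PAF1 and 4.69 ± 1.07 for PHF5A, a ratio of -0.28 ± 0.44. SF3B6, which contacts the branch point (ENSG00000115128), had 2.88 ± 0.857 for PAF1 and 4.55 ± 1.08 for PHF5A, a ratio of -0.52 ± 0.48. SNRNP200, the helicase that unwinds U4 and U6 RNA, had 2.83 for PAF1 and 2.73 for PHF5A, and SNRPG, a ring protein of the snRNPs, 4.38 for PAF1 and 2.68 for PHF5A. The RNA-binding protein gene RBM45 had the lowest ratio of the list with 3.50 for PAF1 and 6.09 for PHF5A.

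A list of transcription machinery genes had a median ratio of -0.011 over 14 members, 7 of them above the median of other autosomes. The list was drawn broadly and also held POLE4, PAPOLG, CNOT11 and RQCD1, which lie outside RNA polymerase and its core factors. TAF1B was the only 2-fold member. POLR1B, the second largest subunit of RNA polymerase I, had 7.58 for PAF1 and 6.39 for PHF5A, POLR2D, a subunit of RNA polymerase II, 1.61 for PAF1 and 2.40 for PHF5A, and CCNT2, a cyclin of the elongation factor P-TEFb, 2.61 for PAF1 and 3.57 for PHF5A. All 4 members of a short list of RNA helicase genes, which does not hold SNRNP200, were above the median of other autosomes. This compares with 59.3% of coding windows of chromosome 2. Their ratios ran from 0.087 ± 0.38 (DDX1) to 0.70 ± 0.40 (DDX18). DDX18, a helicase of ribosome synthesis, had 6.88 ± 1.29 for PAF1 and 4.24 for PHF5A, DDX1 6.05 for PAF1 and 5.92 for PHF5A, and IFIH1, the sensor of viral RNA also called MDA5, 3.44 for PAF1 and 3.24 for PHF5A.

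A list of stem cell markers and regulators, which the title of the series makes of interest, had a median ratio of -0.017 over 21 members. Of these, 10 were above the median of other autosomes. The list was drawn broadly and also held the T cell gene CD28. EPCAM, an epithelial surface marker of pancreatic cancer stem cells (ENSG00000119888), had 6.70 ± 1.31 for PAF1 and 6.50 ± 1.29 for PHF5A, and the chemokine receptor gene CXCR4 (ENSG00000121966) 3.23 ± 0.907 for PAF1 and 3.43 ± 0.938 for PHF5A. In both genes the libraries differed by less than their counting errors. ID2, an inhibitor of helix-loop-helix factors, had the lowest ratio, -1.56 ± 0.60, with 0.72 for PAF1 and 3.24 for PHF5A, and the sterol transporter gene ABCG5 had 1.61 for PAF1 and 4.30 for PHF5A. The PAF1 value of ID2 is at the level that 3 independent counts give in a window of 18 bins (0.721), so its ratio rests on very few counts. NFE2L2, the regulator of the antioxidant response, had 7.77 for PAF1 and 5.53 for PHF5A.

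A list of pancreas genes had a median ratio of -0.030 over 14 members with 5 above the median of other autosomes. The list was drawn broadly and also held CTLA4, PDK1, SLC30A6, DPP4 and CAPN10, which are not particular to the pancreas. GCG, which encodes glucagon, had 8.72 ± 1.45 for PAF1 and 9.11 for PHF5A, and NEUROD1, an islet transcription factor, 6.72 for PAF1 and 5.08 for PHF5A. The REG genes, secreted proteins of acinar cells that lie next to each other on the p arm, went both ways: REG3G had 6.27 for PAF1 and 3.68 for PHF5A, REG1B 5.94 for PAF1 and 4.37 for PHF5A, REG1A 2.50 for PAF1 and 3.80 for PHF5A, and REG3A 6.83 for PAF1 and 8.27 for PHF5A. The islet enzyme gene G6PC2 had 8.44 for PAF1 and 5.08 for PHF5A.

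In the HOXD cluster and its flanks, 9 of 16 members were above the median of other autosomes and the median ratio was 0.11. HOXD13, the most 5′ gene of the cluster and a regulator of digits, had 4.88 ± 1.11 for PAF1 and 1.65 ± 0.651 for PHF5A, a ratio of 1.38 ± 0.53. The neighbouring HOXD12 had 2.22 for PAF1 and 2.68 for PHF5A, and HOXD11 5.66 for PAF1 and 3.52 for PHF5A. HOXD3 had the lowest ratio, with 2.55 for PAF1 and 4.47 for PHF5A. The counting errors of single members (0.32 to 0.59) were of the size of the standard deviation of the 16 ratios (0.50).

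The interleukin-1 family and its receptors had a median ratio of 0.26 over 15 members, with 11 above the median of other autosomes, though none differed 2-fold. IL1RL1, the receptor of interleukin-33, and IL18R1, the receptor of interleukin-18, are listed with the same values, 7.94 ± 1.38 for PAF1 and 4.30 for PHF5A, and count as 2 members. IL18RAP, the second chain of that receptor, had 6.77 for PAF1 and 3.96 for PHF5A, and IL37, an inhibitory cytokine, 8.61 for PAF1 and 5.30 for PHF5A. The other cytokine genes included IL36A, with 7.0 for PAF1 and 6.03 for PHF5A, and IL36G, with 5.22 for PAF1 and 4.52 for PHF5A. Values were 9.05 for PAF1 and 8.38 for PHF5A at IL1A, 7.0 for PAF1 and 7.88 for PHF5A at IL1B, and 4.55 for PAF1 and 4.86 for PHF5A at IL1RN, the receptor antagonist.

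Genes of DNA repair and cancer had a median ratio of 0.16 over 35 members, 20 of them above the median of other autosomes. The mismatch repair gene MSH6 had 3.11 for PAF1 and 4.08 for PHF5A, and XPO1, the main nuclear export receptor, had 2.0 for PAF1 and 4.37 for PHF5A. A list of matrix and integrin genes, which also held TFPI and DES, had a median of 0.098 over 17 members. Fibronectin (FN1) was lowest at 2.05 for PAF1 and 4.97 for PHF5A. The remaining lists were small or uneven: 9 UGT1A genes of glucuronidation had a median of -0.057, 4 ribosomal protein genes 0.033 (0.12 with the pseudogene RPL23AP32, which the list also held), 4 SP100 nuclear body genes 0.20 and 3 alkaline phosphatase genes 0.11. Of the 98 immunoglobulin kappa segments, 65 were above the median of other autosomes and the median ratio was 0.14. This count includes 12 segments listed at 0 in both libraries, whose ratio of 0.058 lies above that median by construction. Without them it was 53 of 86 (61.6%), against 50.4% of antigen receptor segments above 0 on other autosomes. Over all chromosome 2 windows the share was 63.6%. These segments, the UGT1A genes and the SP100 family have near-identical copies, and their values are uncertain because the sources used here do not state how a read with several matches was placed. Read against the 59.3% of coding windows and 63.6% of all windows of chromosome 2 above that median, none of these counts is given as particular to its list.

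The highest ratio of any window with a mean signal of at least 4 belonged to a microRNA gene, and the following genes were chosen after their values were seen. MIR216A, MIR216B and MIR217 form a cluster on the p arm that is known for its expression in acinar cells of the pancreas, MIR375 is a microRNA of the islets, and MIR10B lies in the HOXD cluster. The mature sequences, from RefSeq with the GRCh38.p14 build, are printed with the seed (bases 2 to 8), which pairs with targets, in capitals.
hsa-miR-216a-5p: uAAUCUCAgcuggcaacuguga
hsa-miR-216b-5p: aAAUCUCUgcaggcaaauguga
hsa-miR-217-5p: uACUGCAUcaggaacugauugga
hsa-miR-375-3p: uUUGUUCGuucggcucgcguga
All 4 seeds differ, though those of miR-216a-5p and miR-216b-5p do so only in their last base. MIR216A (window chr2:55988559-55991059, minus strand) had 12.4 ± 1.78 for PAF1 and 3.61 ± 0.961 for PHF5A, a ratio of 1.71 ± 0.39. Its neighbours had 6.23 ± 1.26 for PAF1 and 4.91 ± 1.12 for PHF5A at MIR216B, and 4.47 ± 1.07 for PAF1 and 5.68 ± 1.21 for PHF5A at MIR217. The 3 windows do not overlap, and the high PAF1 value was found in 1 of them. MIR10B had 5.58 ± 1.19 for PAF1 and 4.02 ± 1.02 for PHF5A, and MIR375 had low signal, 0.82 for PAF1 and 0.94 for PHF5A. Of all 101 microRNA windows of chromosome 2, 73 (72.3%) were above the median window of other autosomes. This compares with 63.6% of all chromosome 2 windows and 50.4% of microRNA windows elsewhere, and the difference was not tested. Without windows at 0 in both libraries it was 70 of 98 (71.4%), against 49.2% elsewhere.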

How the data were processed

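The values are promoter signals of the PAF1 and PHF5A libraries, made by the authors and deposited in 1 table of 60123 windows. Per the submitters' processing notes, hg38 was the build and Bowtie2 2.2.3, bedtools, deepTools, Picard and Trim Galore were among the tools, with order, settings and normalization not given in the sources used here. Per the deposited values, each signal is a mean of whole numbers over 150 bp bins cut to 2 decimals (100% of windows within a tolerance of 0.0051, for PHF5A after division by 1.006). Bin sums over all windows were 4810548 for PAF1 and 4891421 for PHF5A, and the depth in reads is unknown.

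Ratios used a pseudocount of 0.5 and the table medians, and each antibody has 1 library, so no test between groups was made. Counting errors scale the bin sums by 4.33, the overdispersion of the PAF1 share in 50205 windows that do not overlap, which also holds true differences between the antibodies. They cover counting alone and are too small near 0. Gene classes came from symbols and a RefSeq table, which matched 57.8% of all windows. Arms were split at 94 Mb, and a step needed 20 windows. The genes named are the 10 highest and 10 lowest coding ratios at a mean signal of 4 or more, the 5 coding promoters with the highest lower signal, the extremes of 15 gene lists, extremes of the highest and lowest steps, and genes related to the study's question; other genes and list members were chosen after their values were seen, and some genes that the rule names are not reported here. The list of long genes was limited to a measured length over 500 kb. The chromosome, members and lists were chosen with earlier results of these data known. The procedure was tested on simulated data. Alternatives changed the pseudocount, filter, summary, windows, reference, step size and fold. The work used SciPy 1.17.1, numpy 2.4.6 and pandas 2.3.3 under Python 3.11.15, with plots by matplotlib 3.10.9.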

Additional observations from a re-analysis of the deposited data

How the results depend on the processing

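No paired analysis was possible because each antibody has 1 library, and for the same reason leaving out a replicate was not possible. The higher median on chromosome 2 kept its direction in all 14 alternatives. The difference from other autosomes (0.13) ran from 0.11 within levels of mean signal to 0.17 for the ratio of summed signal. It lay outside its interval with a mean signal of at least 2 (0.15), for windows above 0 without a pseudocount (0.16), for the mean over windows (0.15), for summed signal (0.17) and for protein-coding windows (0.15). On the p arm (0.15) it did so for windows above 0 (0.18) and coding windows (0.18). On the q arm (0.11) it did so for windows above 0 (0.15), the mean over windows (0.15) and summed signal (0.16). All 13 strand, length and class groups were higher on chromosome 2, except that antigen receptor segments, of which 1 window was left, were lower without 85 to 100 Mb, an alternative chosen after seeing the data (-0.099 on chromosome 2 and 0.039 on other autosomes). All 25 steps of 10 Mb and all 13 of 20 Mb were above the median of other autosomes, and 48 of 49 steps of 5 Mb.

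The share of chromosome 2 windows with a higher PAF1 signal (2.56% at 2-fold) was 14.7% at 1.5-fold against 9.61% elsewhere, 0.219% at 3-fold against 0.144%, 4.73% with a pseudocount of 0.1 against 3.66%, and 1.19% with a pseudocount of 1 against 0.781%. The share with a higher PHF5A signal (0.853%) was 4.61% at 1.5-fold against 9.80% elsewhere, 0.0975% at 3-fold against 0.231%, 0.488% with a mean signal of at least 2 against 1.65%, 1.56% with a pseudocount of 0.1 against 4.40%, and 0.268% with a pseudocount of 1 against 1.02%. The comparison within levels of G+C content was not run, as too few windows had a sequence. The cause of these movements was not tested. With a counting error of 0.42, depth does not allow a shift of 0.13 to be seen in a single window.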

Other observations

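Windows without a coding gene held some of the highest signals of chromosome 2, and the values that follow were chosen after they were seen. The clone-named gene AC010731.3 had 21.5 ± 2.34 for PAF1 and 15.4 ± 1.98 for PHF5A, the highest mean of both on the chromosome. HMGN2P23, a pseudogene of a nucleosome-binding protein gene, had 20.1 ± 2.26 for PAF1 and 14.4 ± 1.92 for PHF5A. By ratio and not by signal, RNU6-1140P stood out at a mean signal of at least 4. It is a pseudogene of the U6 spliceosomal RNA and had 6.23 ± 1.26 for PAF1 and 1.89 ± 0.696 for PHF5A.

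The 105 windows with a PAF1 signal at least 2-fold higher were counted by step and by class, with no test. Step 11, from 100 to 110 Mb, held 13 of them (7.18% of its windows), and step 13, from 120 to 130 Mb, held none, against 2.56% over the chromosome. Of the 13, 3 had a mean signal of at least 4, and 1 overlapped an earlier window. By class, 55 of the 105 (52.4%) were clone-named or placed in no other class, against 42.2% of all chromosome 2 windows. Another 23 (21.9%) were protein-coding, against 29.3%. In step 11 the coding members were SULT1C3 and RANBP2, a nuclear pore gene with 2.0 for PAF1 and 0.53 for PHF5A, whose PHF5A value lies below the level of 3 independent counts (0.725). Its value is also uncertain because the chromosome holds near-identical copies of parts of it.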
